A study of Mus musculus with 3 samples.

Results

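IFITM and interferon response genes were represented by 7 genes chosen by name, Ifitm1, Ifitm2, Ifitm3, Isg15, Bst2, Irf1 and Cxcl10, out of 36808 genes listed in each of 2 deposited tables. All 7 were found as single rows in both tables. The values came from messenger RNA sequencing of the mouse embryonic stem (ES) cell line D3, whose strain of origin is given as (C3H/HeH x 101/H)F1. The libraries were from embryoid bodies (EBs, free-floating aggregates of differentiating ES cells) at day 4 with Brachyury knockdown, from control EBs at day 4 that carried a nontarget treatment per the file headers and are labelled wild type, and from wild-type ES cells at day 0. Each group was 1 library of a whole culture, so differences are described without a test and without a check between replicates. The means of the knockdown is not given in the sources used here. No nontarget treatment is named for the ES cells. In every comparison of control EBs with ES cells, that treatment and EB culture to day 4 therefore cannot be told apart.

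Interferons bind cell-surface receptors whose JAK family kinases, JAK1 and TYK2 for interferon alpha and beta, phosphorylate STAT proteins. A complex of STAT proteins with IRF9 binds the interferon-stimulated response element (ISRE) at antiviral genes, while STAT dimers formed after interferon gamma bind GAS elements, such as that of Irf1. Pluripotent stem cells are known to respond weakly to interferon and to express some antiviral genes, IFITM genes among them, without it. IFITM proteins sit in cell membranes and hinder the fusion of enveloped viruses, and in the mouse embryo Ifitm3, also called fragilis, is known for its expression in the proximal epiblast and in germ cell precursors.

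Values are FPKM, fragments per kilobase of transcript and library size, so that levels can be set beside each other between genes. The control library was quantified in both tables, and each comparison was made within 1 table. Values of all 3 libraries set side by side cross the tables. The control values of Ifitm2, Ifitm3, Isg15 and Bst2 were equal in both tables, and those of Ifitm1 (140.84 and 140.80 FPKM), Irf1 (74.15 and 74.13 FPKM) and Cxcl10 (6.65 and 6.62 FPKM) nearly so. A gene is called higher or lower when log2(FPKM + 1) differed by at least 1, a rule of size alone.

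In the knockdown comparison the members differed among themselves. The 3 IFITM genes stayed near their control level, Bst2 and Irf1 stood at 53.8% and 53.3% of it, and Isg15 and Cxcl10 were near or at 0. Of the 7 members 2 were called lower in knockdown EBs and 0 higher, against 2.53% of 13760 genes called lower and 5.31% called higher. In control EBs against ES cells 6 of the 7 were called higher and 0 lower, with Ifitm2 the exception, against 15.8% of 13914 genes called higher and 19.5% called lower. Isg15 and Cxcl10 reached the floor of 1 FPKM in control EBs alone, so each could enter only as highest there. The median difference over the members was −0.89 in the first comparison and 2.45 in the second, and that over all genes 0.057 and −0.10. The members were named with earlier results of these data known, and the comparisons share the control library, so opposite signs in them are not independent of each other.

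**Figure D1:**
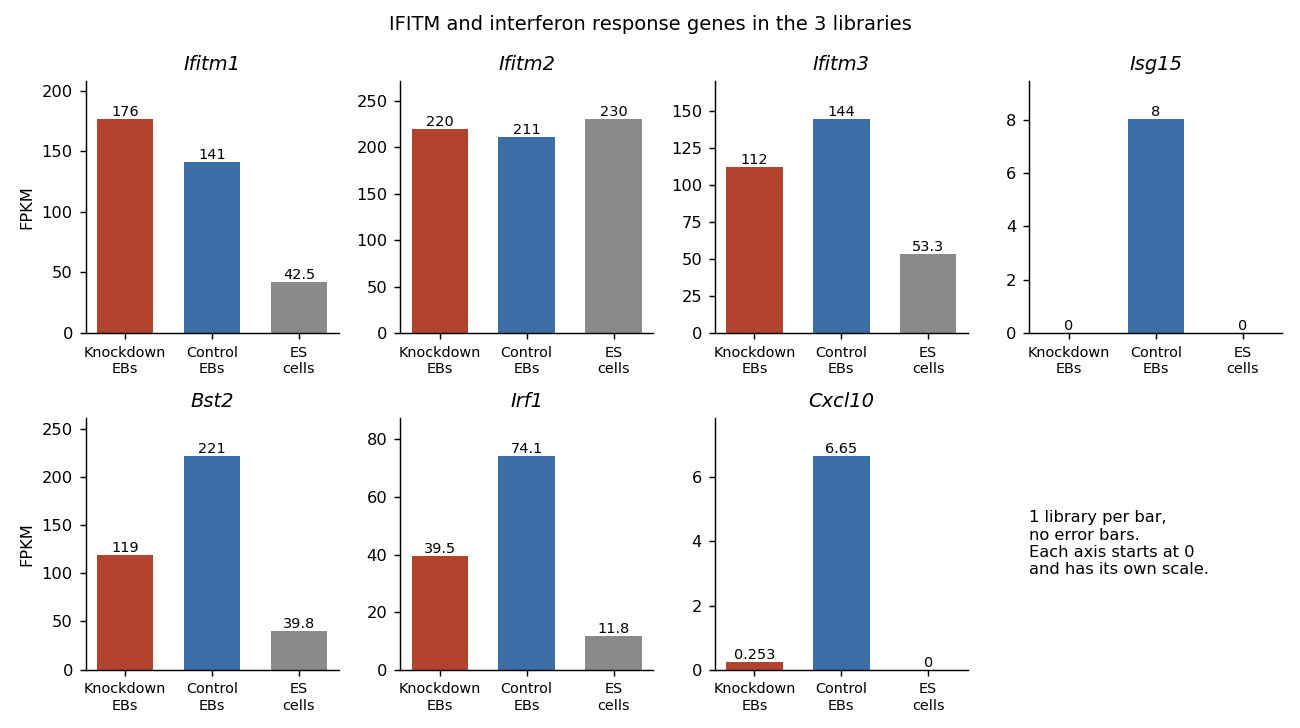
FPKM of the 7 members in knockdown EBs, control EBs (value of the table with the knockdown) and ES cells, 1 bar for 1 library, each panel with its own axis from 0. Ifitm2 stays between 211 and 230 FPKM, whereas Bst2, Irf1, Isg15 and Cxcl10 are highest in control EBs.

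Promoter windows are printed for the 5 members that were highest in control EBs, Isg15, Bst2, Cxcl10, Ifitm3 and Irf1. Of the 2 not printed, Ifitm1 was highest in knockdown EBs and Ifitm2 in ES cells. The windows run from 250 bases before to 50 bases after the transcript start in RefSeq on GRCm38.p6, a later build than the mm9 of the deposited loci, written 5′ to 3′ on the gene's strand. Capitals mark matches to GAAANNGAAA, a pair of GAAA repeats as in the ISRE, or to TTCNNNGAA, the GAS core, each searched on both strands. The GAS core reads the same on both strands. All ISRE-like matches were on the gene's own strand, and neighbouring matches overlap where the capitals run on.
Isg15, chr4:156200769-156201068, minus strand: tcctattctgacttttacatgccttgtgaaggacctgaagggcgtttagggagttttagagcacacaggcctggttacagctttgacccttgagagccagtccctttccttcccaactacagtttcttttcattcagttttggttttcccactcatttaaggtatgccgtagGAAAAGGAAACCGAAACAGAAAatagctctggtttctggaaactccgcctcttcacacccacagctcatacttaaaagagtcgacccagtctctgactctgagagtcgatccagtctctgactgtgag
Bst2, chr8:71537423-71537722, minus strand: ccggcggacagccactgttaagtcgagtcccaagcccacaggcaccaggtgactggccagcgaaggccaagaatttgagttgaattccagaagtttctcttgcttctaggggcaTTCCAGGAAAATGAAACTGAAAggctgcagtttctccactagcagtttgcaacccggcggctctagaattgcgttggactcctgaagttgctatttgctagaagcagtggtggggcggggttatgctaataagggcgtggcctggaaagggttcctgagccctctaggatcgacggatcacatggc
Cxcl10, chr5:92348840-92349139, minus strand: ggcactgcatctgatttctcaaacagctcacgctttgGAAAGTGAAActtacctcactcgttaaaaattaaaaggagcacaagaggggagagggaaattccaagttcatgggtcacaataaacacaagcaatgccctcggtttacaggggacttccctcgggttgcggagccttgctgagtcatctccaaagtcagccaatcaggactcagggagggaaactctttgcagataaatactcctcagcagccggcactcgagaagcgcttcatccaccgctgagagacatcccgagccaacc
Ifitm3, chr7:141010695-141010994, minus strand: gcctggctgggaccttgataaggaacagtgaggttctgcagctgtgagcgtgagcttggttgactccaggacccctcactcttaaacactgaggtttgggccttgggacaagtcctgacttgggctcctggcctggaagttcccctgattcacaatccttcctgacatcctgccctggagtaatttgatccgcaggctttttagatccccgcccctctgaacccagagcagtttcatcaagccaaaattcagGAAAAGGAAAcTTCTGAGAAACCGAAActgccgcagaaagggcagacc
Irf1, chr11:53769764-53770063, plus strand: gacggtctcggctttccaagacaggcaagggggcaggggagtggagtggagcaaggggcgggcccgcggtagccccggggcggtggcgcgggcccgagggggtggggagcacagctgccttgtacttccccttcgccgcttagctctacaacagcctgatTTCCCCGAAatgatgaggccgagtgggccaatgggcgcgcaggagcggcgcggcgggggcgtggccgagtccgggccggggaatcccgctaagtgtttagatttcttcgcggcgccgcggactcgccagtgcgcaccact
All 7 members had a RefSeq window, and Irf1 had 2. The ISRE-like core was found in 5 of the 7, Isg15, Bst2, Cxcl10, Ifitm2 and Ifitm3, against 3.44% of 32851 windows of this length. Whether it goes with the order of libraries was not tested. Irf1, highest in control EBs, and Ifitm1, called higher there than in ES cells, lacked it, while Ifitm2, the most even member, had it. Isg15 held 3 overlapping matches between bases −78 and −57 from the start, Bst2 held 2 between −130 and −115, and Cxcl10 had 1 from −213 to −204. Ifitm3 had 1 from base 3 to 12 and 1 from base 20 to 29 after its start, and Ifitm2 had 1 from −46 to −37. The GAS core was found in Irf1 (−90 to −82), Bst2 (−136 to −128) and Ifitm3 (14 to 22), against 8.30% of windows, and overlapped an ISRE-like match in Bst2 and Ifitm3. The half-site TCACACCT bound by Brachyury was in 0 of the members' windows, against 1.28% of all windows, which says only that these letters are not in these bases. A match is a match of letters, and binding was not measured here.

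**Figure D2:**
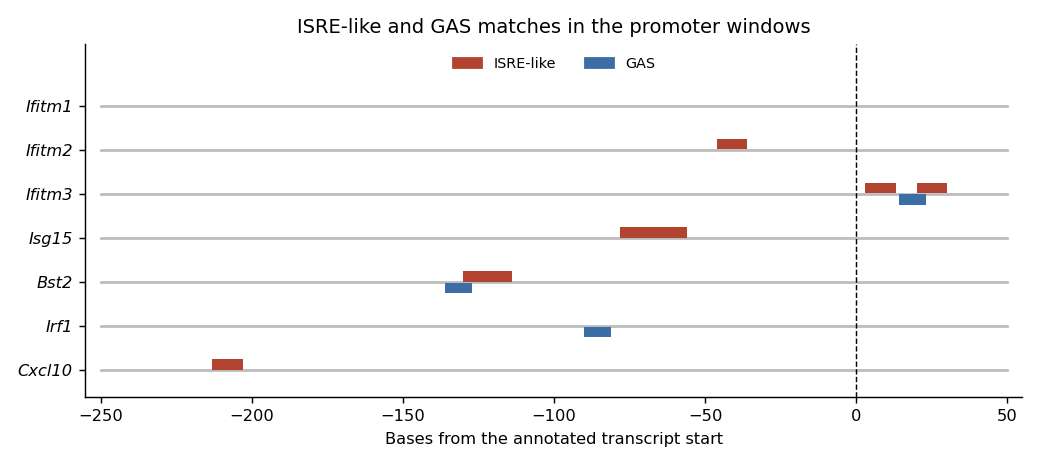
Positions of ISRE-like matches (red, above the line) and GAS matches (blue, below the line) in the promoter window of each member, in bases from the annotated transcript start (dashed line); for Irf1 the first of its 2 windows is drawn. Isg15, Bst2 and Cxcl10 have their ISRE-like matches before the start, at −78 to −57, −130 to −115 and −213 to −204.

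Ifitm1, Ifitm2 and Ifitm3 lie together on mouse chromosome 7 (mm9), Ifitm2 at 148140736 to 148141882, Ifitm1 at 148153120 to 148155724 and Ifitm3 at 148195489 to 148196643. Ifitm1 (ENSMUSG00000025491) had 176 FPKM in knockdown EBs, 141 FPKM in control EBs and 42.5 FPKM in ES cells. Both EB libraries were above the ES cells, and the knockdown library was the highest. The ratio of knockdown to control EBs was 1.25, and in the authors' deposited table its unadjusted p was 0.0470, which implies an error of 0.16 around a log2 ratio of 0.32. Errors implied by that p are for 1 library against another and not for the spread between cultures. Set against ES cells, Ifitm1 was 3.32-fold higher in control EBs (log2 ratio 1.73, implied error 0.25; p = 7.97e-12 in the authors' deposited table).

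Ifitm3 (ENSMUSG00000025492) had 112 FPKM in knockdown EBs, 144 FPKM in control EBs and 53.3 FPKM in ES cells. It differed from Ifitm1 in that the control library, not the knockdown, was the highest. Knockdown EBs thus held 77.7% of the control level (log2 ratio −0.36, implied error 0.18; p = 0.0450 in the authors' deposited table). The control value was 2.71-fold that of ES cells (log2 ratio 1.44, implied error 0.23; p = 5.18e-10 in the authors' deposited table). This call in control EBs was lost, at a log2 difference of 0.97, when both libraries were scaled to the same FPKM sum.

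Ifitm2 (ENSMUSG00000060591) had 220 FPKM in knockdown EBs, 211 FPKM in control EBs and 230 FPKM in ES cells. It was thus the most even of the 7 and, in ES cells, the highest. Its log2 ratio was 0.057 between knockdown and control EBs (implied error 0.14; p = 0.684 in the authors' deposited table) and −0.12 between control EBs and ES cells (implied error 0.14; p = 0.374 in the same source). Ifitm2 ranked 536 from the top of all genes in knockdown EBs, 558 in control EBs and 399 in ES cells. Among genes at 1 FPKM or more it lay above 96.0%, 95.7% and 96.9% of them.

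The 3 paralogues summed to 508 FPKM in knockdown EBs, 496 FPKM in control EBs and 326 FPKM in ES cells. The share of Ifitm2 was close in the EB libraries and higher in ES cells, while Ifitm1 and Ifitm3 changed places between the EB libraries. Ifitm2 gave 43.2% of the sum in knockdown EBs, 42.6% in control EBs and 70.6% in ES cells. Ifitm1 gave 34.7%, 28.4% and 13.04% in the same order of libraries. Ifitm3 gave 22.1%, 29.1% and 16.4%. Shares within a library do not depend on how libraries were scaled.

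**Figure D3:**
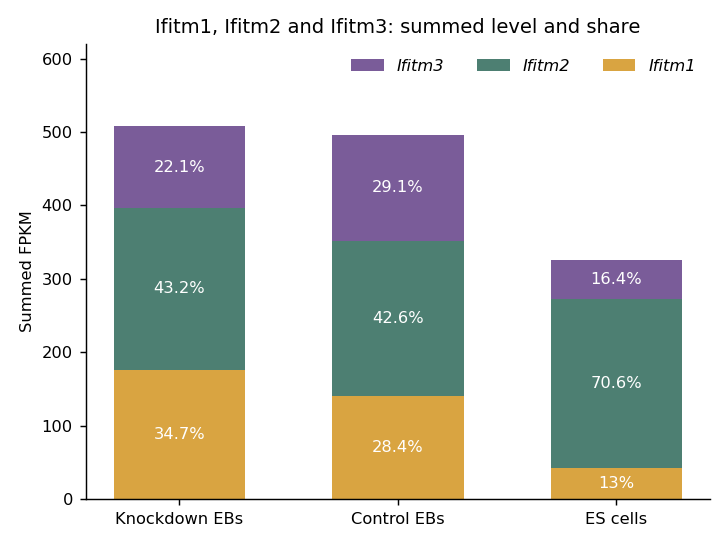
Summed FPKM of Ifitm1, Ifitm2 and Ifitm3 (stacked bars, 1 library each) with the percent that each gene gives. The sums are 508 and 496 FPKM in the knockdown and control EBs and 326 FPKM in ES cells, where Ifitm2 gives 70.6%.

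The IFITM genes are paralogues, and how the authors' tools divided reads that fit several of them is not known here. Of the 30-base words in GENCODE M21 transcripts of Ifitm1, Ifitm2 and Ifitm3, 4.18%, 8.79% and 10.2% also occurred in another of these, in Ifitm6 or in Ifitm7. Among the remaining family members, Ifitm5, known from bone-forming cells, was at 1.11 FPKM in knockdown EBs, 0.999 FPKM in control EBs and 1.01 FPKM in ES cells. Ifitm6 and Ifitm10 were listed at 0 in every library, Ifitm10 in a locus of 2 genes, where a 0 can be a failed estimate. Ifitm7, in a deposited locus of 5 genes on chromosome 16, was at 2.91, 1.20 and 2.97 FPKM, highest in ES cells and lowest in control EBs. Ifitm6 and Ifitm10 were below the floor and so were not compared, and neither Ifitm5 nor Ifitm7 was called in either comparison. Over all genes 5.31% were called higher and 2.53% lower on knockdown, and 15.8% and 19.5% in control EBs against ES cells.

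Isg15 (ENSMUSG00000035692; chromosome 4, 155573533 to 155574927 on mm9) encodes a ubiquitin-like protein that is attached to other proteins after interferon. It was listed at 0 in knockdown EBs, had 8.005 FPKM in control EBs and was listed at 0 in ES cells. Only the control library held a value above 0, the same in both tables. No fold is given, since a value of 0 can be a failed estimate in such tables, and the authors' p is 0 for any gene at 0 in 1 library alone. Of its conjugation partners, Uba7, the activating enzyme, was listed at 0, at 0.358 and at 0 FPKM in the same order of libraries, and Ube2l6, the conjugating enzyme, was at 2.12, 1.11 and 0.962 FPKM. Usp18, the protease that removes ISG15 and damps receptor signalling, ran the other way in the knockdown. It was called higher there, at 6.51 FPKM in knockdown EBs, 1.36 FPKM in control EBs and listed at 0 in ES cells.

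Bst2 (ENSMUSG00000046718; chromosome 8, 74058163 to 74061336 on mm9) encodes tetherin, a membrane protein that holds budding virus at the cell surface. It had 119 FPKM in knockdown EBs, 221 FPKM in control EBs and 39.8 FPKM in ES cells, so the knockdown library lay between the others. The knockdown value was 1.86-fold below that of control EBs (log2 ratio −0.89, implied error 0.16; p = 4.82e-08 in the authors' deposited table), short of the size rule. Control EBs were 5.56-fold above ES cells, where the authors' deposited table lists p as 0. Bst2 was the most abundant member in control EBs, at rank 534 of all genes. The next gene on this chromosome, Fam125a, was at 63.2 FPKM in knockdown EBs, 76.3 FPKM in control EBs and 30.2 FPKM in ES cells.

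Irf1 (ENSMUSG00000018899; chromosome 11, 53583516 to 53591876 on mm9) encodes a transcription factor that binds ISRE-like sites and is itself induced by interferon. It had 39.5 FPKM in knockdown EBs, 74.1 FPKM in control EBs and 11.8 FPKM in ES cells, the same order of libraries as for Bst2. The knockdown value was 1.88-fold below that of control EBs (log2 ratio −0.91, implied error 0.29; p = 0.00148 in the authors' deposited table), also short of the size rule. Control EBs were 6.31-fold above ES cells (log2 ratio 2.66, implied error 0.46; p = 6.08e-09 in the authors' deposited table). Its locus is shared with AL596182.1, which stayed at or below 1.005 FPKM in all libraries.

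Cxcl10 (ENSMUSG00000034855) encodes a chemokine that attracts T cells through the receptor CXCR3. It was at 0.253 FPKM in knockdown EBs and at 6.65 FPKM in control EBs, and was listed at 0 in ES cells. Control EBs were again alone in having more than a trace. Knockdown EBs stood at 3.81% of control EBs, but the implied error of 2.24 around a log2 ratio of −4.72 leaves that size imprecise (p = 0.0350 in the authors' deposited table). The deposited locus, chromosome 5, 92760853 to 92843654 on mm9, holds Cxcl10, Cxcl11, Art3 and Gm2673, so overlap with these is uncertain. Cxcl11, its neighbour and a ligand of the same receptor, was at 0.0515 FPKM in knockdown EBs and 1.25 FPKM in control EBs, and was listed at 0 in ES cells. Cxcl9, Ccl2, Ccl5 and the receptor gene Cxcr3 were listed at 0 in all 3 libraries, Ccl2 in a locus of 2 genes, where a 0 can be a failed estimate.

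The pathway around the members was described by 12 lists with 126 other genes. Of these, 78 reached 1 FPKM in the knockdown comparison. There, 8 were called lower and 3 higher, that is 10.3% and 3.85%, against 2.53% and 5.31% of all genes, with a median difference of −0.043. In the authors' deposited table the unadjusted p of each of these called genes was larger than that of Bst2 and of Irf1. It was above 0.05 for all of them but Irgm1. In control EBs against ES cells 82 reached the floor, of which 19 were called higher and 16 lower, that is 23.2% and 19.5%, against 15.8% and 19.5% of all genes, with a median of 0.018. The share called lower on knockdown depended on the settings, at 3 of 43 genes with a floor of 5 FPKM and 17 of 78 with a pseudocount of 0.1.

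Interferon ligand genes gave no signal. All 13, Ifnb1, Ifng, 6 interferon alpha genes and others, were listed at 0 in every library. Of these Ifnk lies in a locus of 3 genes, where a 0 can be a failed estimate. The 6 receptor genes were all measured and none was called in either comparison, with Ifnar1 at 18.1 FPKM in knockdown EBs, 15.2 FPKM in control EBs and 12.1 FPKM in ES cells. Of the 6 JAK-STAT genes 0 were called on knockdown, where the median was 0.034. Among all genes 2.53% were called lower and 5.31% higher there. Tyk2, a receptor kinase, was at 3.37 FPKM in knockdown EBs, 3.52 FPKM in control EBs and 10.4 FPKM in ES cells. Stat2 was at 3.12, 2.75 and 7.69 FPKM, and both were called lower in control EBs than in the ES cell library. That is 2 of 6, against 19.5% of all genes.

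Among the other 8 interferon regulatory factor genes, 3 were at 1 FPKM or more in the knockdown comparison and 0 were called. Over all genes 2.53% were called lower and 5.31% higher there, so 0 of 3 is near that share. Irf3, which acts downstream of nucleic acid sensors, was at 26.5 FPKM in knockdown EBs, 24.5 FPKM in control EBs and 22.7 FPKM in ES cells. Irf7 was listed at 0 in all 3 libraries, in a locus of 2 genes, where a 0 can be a failed estimate. Of the 15 sensors and adaptors 9 were compared between control EBs and ES cells, and 3 were called lower and 0 higher in control EBs. That is 33.3% and 0%, against 19.5% and 15.8% of all genes. The 3 include Ddx58, encoding the RNA sensor RIG-I, at 3.65 FPKM in knockdown EBs, 6.05 FPKM in control EBs and 13.3 FPKM in ES cells. Also among them was the DNA sensor gene Aim2, at 0.671, 1.44 and 9.81 FPKM in the same order.

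Of 21 antiviral effector genes other than the members compared on knockdown, 5 were called lower and 1 higher. That is 23.8% and 4.76%, against 2.53% and 5.31% of all genes, with a median of −0.23 for the 21. The immunity-related GTPase gene Irgm1 was at 7.17 FPKM in knockdown EBs, 22.0 FPKM in control EBs and 0.772 FPKM in ES cells. Igtp, a gene of the same GTPase family, was at 6.81, 15.1 and 0.640 FPKM. The guanylate-binding protein gene Gbp2 was at 8.06 FPKM in knockdown EBs and 18.5 FPKM in control EBs, and was listed at 0 in ES cells. These 3 GTPase genes had the order of libraries seen for Bst2 and Irf1. The other 2 lower genes, below 5 FPKM in both EB libraries and named after their values were seen, were Isg20 and Oas1a. Isg20 was at 0.546 FPKM in knockdown EBs and 4.22 FPKM in control EBs and was listed at 0 in ES cells. Oas1a was at 0.660, 3.06 and 5.28 FPKM, highest in ES cells. Zc3hav1, encoding the zinc finger antiviral protein, was the higher one, at 7.20 FPKM in knockdown EBs, 2.998 FPKM in control EBs and 8.38 FPKM in ES cells.

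Between control EBs and ES cells, 9 of 23 other effector genes were called higher and 6 lower, that is 39.1% and 26.1%, against 15.8% and 19.5% of all genes. Trim25, the ubiquitin ligase of the RIG-I pathway, was at 7.29 FPKM in control EBs and 60.7 FPKM in ES cells. Pml, of the nuclear bodies, was at 11.0 FPKM in control EBs and 95.4 FPKM in ES cells. Trim25 and Pml were named after their values were seen. Of the 36 effector genes 5, Mx1, Ifit3, Ifi44, Sp100 and Eif2ak2, were listed at 0 in all 3 libraries, and of these Eif2ak2 and Sp100 lie in loci of several genes, where a 0 can be a failed estimate.

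**Figure D4:**
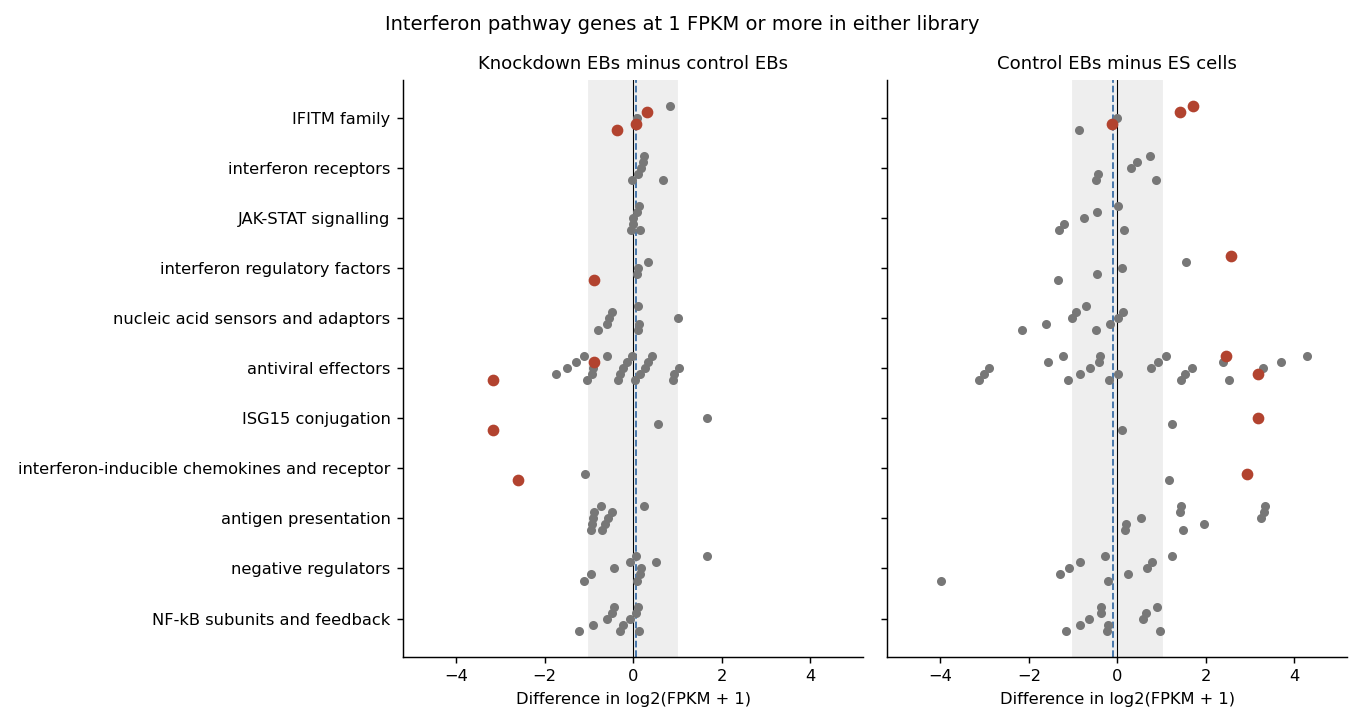
Difference in log2(FPKM + 1) of each pathway gene at 1 FPKM or more in either library, by list, with the members in red, the range of less than 2-fold shaded, and the median of all genes as a dashed line; the left panel is knockdown minus control EBs, the right control EBs minus ES cells. Receptor and JAK-STAT genes stay in the shaded range on knockdown, where Isg15 and Cxcl10 are the lowest members.

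Of 10 antigen presentation genes, a set induced by interferon, 6 had the order of libraries of Bst2 and Irf1, 3 were lower in knockdown EBs than in ES cells and 1, Psmb8, was highest in knockdown EBs. On knockdown 9 of the 10 were below their control value and 0 were called, with a median of −0.72. Of all 13760 genes compared there, 5839 were below their control value and 2.53% were called lower. Between control EBs and the ES cell library 7 of 10 were called higher in control EBs (median 1.46), against 15.8% of all genes. B2m was at 69.2 FPKM in knockdown EBs, 115 FPKM in control EBs and 11.2 FPKM in ES cells, and H2-K1 at 31.4, 59.5 and 14.7 FPKM. Psmb8, an immunoproteasome gene, was at 10.8 and 9.004 FPKM in the knockdown and control EBs and was listed at 0 in ES cells. Erap1, a peptide-trimming enzyme gene, was at 8.38, 12.8 and 0.369 FPKM.

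Negative regulators went both ways. Of 10 compared on knockdown 1, Usp18, was called higher and 1, Socs1, was called lower, against 5.31% and 2.53% of all genes. Socs1, named after its values were seen, was at 1.19 FPKM in knockdown EBs and 3.72 FPKM in control EBs. Socs3, which damps LIF and interferon signalling, was at 1.12 FPKM in knockdown EBs, 3.08 FPKM in control EBs and 64.7 FPKM in ES cells. Pias3 and Pias4, genes of STAT inhibitors, were also called lower in control EBs than in the ES cell library, at 4.43 and 11.5 FPKM in control EBs and 12.4 and 25.9 FPKM in ES cells. With Socs3 they made 3 of 10 called lower, against 19.5% of all genes. Of 11 NF-kB genes compared, Relb was the 1 called lower on knockdown, against 2.53% of all genes. Relb, also named after its values were seen, was at 1.44 FPKM in knockdown EBs and 4.74 FPKM in control EBs. Nfkb1 was the 1 of 11 called lower in control EBs than in the ES cell library, at 13.6 and 31.4 FPKM, against 19.5% of all genes.

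**Figure D5:**
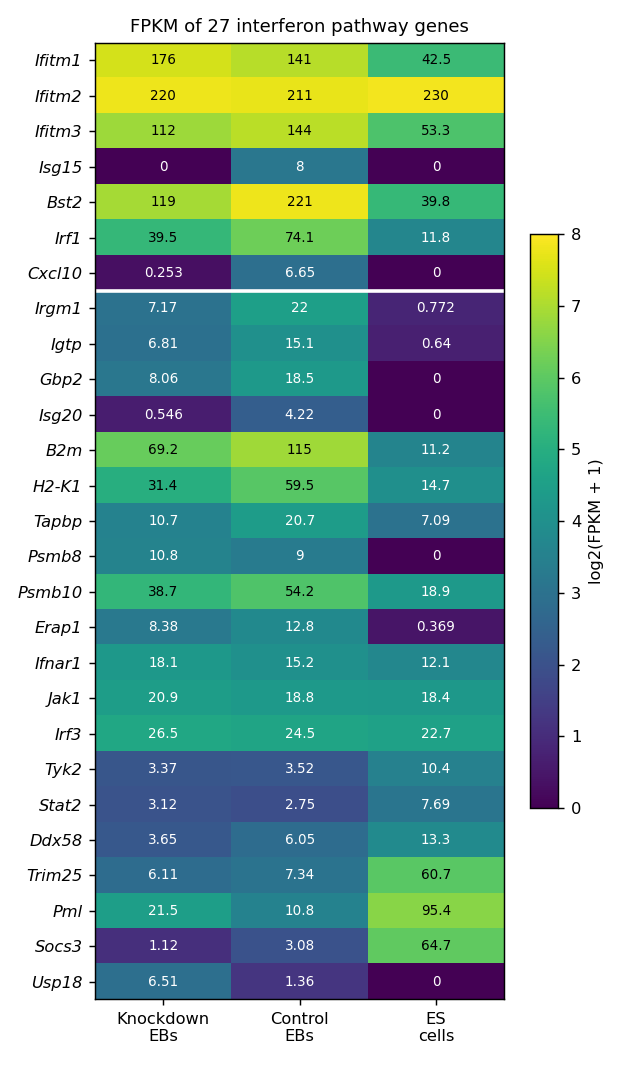
FPKM (numbers) and log2(FPKM + 1) (colour) of the 7 members, above the white line, and of 20 further pathway genes in knockdown EBs, control EBs and ES cells, 1 library each. Irgm1, Igtp, Gbp2, B2m and H2-K1 share the order of Bst2 and Irf1, with control EBs highest, whereas Trim25, Pml and Socs3 are highest in ES cells.

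The ISRE-like core was looked up in the windows of the other pathway genes as well. It was found in 26 of 101 genes that had a window, against 3.44% of all windows. Of the 6 genes with a window that were called lower on knockdown 5 held it, Irgm1, Igtp, Gbp2, Oas1a and Socs1, and Isg20 did not. Of the 58 others with a window and at 1 FPKM or more it was found in 9. Cxcl11 and Relb, also called lower, had no window. The lower calls depended on the settings, with 1 of 78 genes lower by the 3-fold rule. Of the 5 lower genes with a match, Irgm1 alone had an unadjusted p below 0.05 in the authors' deposited table. These are counts of letter matches in genes chosen for the pathway with earlier results known. The genes were sorted by the same differences, and no test was made.

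Genes most like each member over both differences were sought among 10849 genes with at least 5 FPKM in 1 or more libraries. Closest to Ifitm1 was Ifi30, encoding an interferon-inducible thiol reductase and itself in the effector list, at 87.0 FPKM in knockdown EBs, 68.6 FPKM in control EBs and 20.7 FPKM in ES cells (distance 0.028 in log2 units), followed by Dsc2 and 2300009A05Rik. For Ifitm2 they were Dmxl1, Sugt1 and Mkks, and for Ifitm3 Efnb2, Gm6451 and Gm5623. For Bst2 they were Gm5614, Gm12005 and Sulf1, and Sulf1 was also among those for Irf1, after Rps24-ps2 and Dcxr. Krt19 was second for Isg15, between Gm15284 and Rpl36-ps8. Cxcl10 was nearest Trim67, Apln and Foxb1. With 2 differences, near matches are common around small values, with 1226 genes within 0.25 of Ifitm2, 80 of Ifitm1 and 22 of Bst2, but 2 of Isg15.

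The libraries were checked against their labels. T, the targeted gene, was at 2.47 FPKM in knockdown EBs, 254 FPKM in control EBs and 0.297 FPKM in ES cells. Summed FPKM of 8 ES cell markers was 851 in knockdown EBs, 625 in control EBs and 3177 in ES cells. The higher sum in knockdown than control EBs came largely from Dppa5a, at 360 and 97.6 FPKM. Of the 7 at 1 FPKM or more, 5 were above and 2 below control EBs on knockdown. Of these 7, 3 were called higher and 0 lower, against 5.31% and 2.53% of all genes. The 3 were Dppa5a, Zfp42 (28.5 and 5.51 FPKM) and Esrrb (6.69 and 1.33 FPKM). The 2 below control EBs were Pou5f1 (361 and 390 FPKM) and Nanog (91.7 and 128 FPKM), neither of them called. The 8 primitive streak markers summed to 175, 569 and 2.83 FPKM. Sox2 was listed at 0 in every library, in a locus of 3 genes. Without T the streak markers summed to 173, 315 and 2.53 FPKM, and Fgf8, at 48.1 FPKM in knockdown EBs and 183 FPKM in control EBs, gave most of that difference. On knockdown 4 of the 8, T, Fgf8, Mixl1 and Wnt3, were called lower, against 2.53% of all genes. The other 4 were not called, of which Gsc (52.9 and 42.1 FPKM) and Lhx1 (36.5 and 27.5 FPKM) were above control EBs. As for Bst2, Irf1 and Cxcl10, control EBs had the highest sum, and the part of streak cells in these results was not tested. Of 10 blood and immune markers Ptprc, Emr1, Lyz2 and Tyrobp were listed at 0 in all 3 libraries, and the list summed to 16.2 FPKM in knockdown EBs, 15.5 FPKM in control EBs and 23.0 FPKM in ES cells, mostly from Cd68. Fibroblast or feeder cell markers summed to 17.9, 6.60 and 10.7 FPKM with Col3a1 and Lum at 0 in all. Of the 3 that reached 1 FPKM in the knockdown comparison, Dcn was called higher, at 9.12 FPKM in knockdown EBs and 0.253 FPKM in control EBs. Thy1 (6.45 and 3.30 FPKM) and Pdgfra (1.58 and 1.90 FPKM) were not called. Endothelial markers summed to 4.39, 1.30 and 20.7 FPKM, with Vwf called higher on knockdown (1.47 and 0.0778 FPKM). Germ cell markers summed to 40.9, 32.9 and 54.3 FPKM, with 3 of 8 called higher on knockdown and 1 lower. Beside each of these marker counts stand 5.31% of all genes called higher on knockdown and 2.53% called lower. In whole cultures, fewer cells of a type and less RNA per cell cannot be told apart. FPKM over all genes summed to 751086 in knockdown EBs, to 778303 and 773230 in the 2 values of control EBs and to 563709 in ES cells, and read counts and depth are unknown here.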

How the data were processed

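The study sequenced messenger RNA of 3 libraries, 1 each of knockdown EBs, control EBs and ES cells, grouped by their titles. FPKM were computed by the authors and deposited in 2 tables. The submitters' processing notes name Bowtie, Cuffdiff and build mm9, without versions or an annotation. The deposited natural log of the fold change was not used. The deposited p-value is unadjusted and compares 2 libraries; the implied error is the log2 ratio divided by the normal quantile of that p.

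Columns were assigned by name, the first table's day 4 EB column as the control. Of 18037 genes above 0 in either control column, 79.1% were within 1% of each other. Low FPKM did not fall on whole-read steps (9 of 575 genes shared the commonest ratio), so depth is unknown. Short RNAs (4482 rows) were left out, 25 symbols turned into dates were repaired by gene ID, and rows of 1 symbol were summed. Genes at 1 FPKM or more in either library were compared by log2(FPKM + 1), which understates the change of low genes. Deposited starts had 1 added. All 133 pathway symbols were matched, by gene ID or by symbol. Sequences are from RefSeq on GRCm38.p6. Python 3.11.15 and pandas 2.3.3 were used. The calling step was run on simulated data, with genes at 5 FPKM or more and planted changes of at least 3-fold. That run covers neither low values nor the spread between cultures.

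The members and lists were chosen with earlier results of these data known. Named genes were the members, IFITM paralogues, T, up to 4 called genes per list with the greatest difference and at least 5 FPKM in either library, and the 3 nearest genes of each member. Uncalled genes given as examples were chosen after their values were seen. The single-gene results of 2 list members are not reported here. Alternatives tried were other pseudocounts (0.1, 0.5), other floors (none, 5 FPKM), 2 scalings, a 3-fold rule, the highest row per symbol, the other table's control value, and genes listed at 0 left out. Leaving out genes in shared loci, or genes whose control values differed over 1.5-fold, was added after seeing the data.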

Additional observations from a re-analysis of the deposited data

How the results depend on the processing

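Over the alternatives, the 7 members kept their direction in both comparisons, and their calls changed for Ifitm3 alone, which was no longer called higher in control EBs than in the ES cell library with equal FPKM sums (0.97) or the 3-fold rule (1.42). Members called lower on knockdown numbered 1 with genes listed at 0 left out and 1 with genes in shared loci left out, because Isg15 or Cxcl10 then drops out. For other pathway genes on knockdown, 5 were higher and 17 lower with a pseudocount of 0.1, 5 and 14 with 0.5, 1 and 1 with the 3-fold rule, 3 lower with a floor of 5 FPKM, and 1 higher with the median ratio set to 0. In control EBs against ES cells 12 were higher with a floor of 5 FPKM, 10 higher and 6 lower with the 3-fold rule, 11 higher without genes listed at 0, and 25 lower with equal FPKM sums. Over all genes on knockdown, 730 higher and 348 lower became 1164 and 539 with a pseudocount of 0.1, 400 and 229 with a floor of 5 FPKM, 295 and 123 with the 3-fold rule, and 473 and 220 without shared loci. Between control EBs and ES cells 2202 higher and 2716 lower became 1379 and 4321 with equal FPKM sums, 981 and 1188 with the 3-fold rule, and 1418 and 1718 without shared loci. Equal sums moved the median of all genes by −0.41 and the higher share of calls to 24.2%, against 44.8% as deposited, and setting the median ratio to 0 moved it by 0.10. The log2 difference of Ifitm2 between control EBs and ES cells lay between −0.58 and −0.015. No paired analysis was possible because each group has 1 library, and leaving out a library was not possible for the same reason. Unknown depth limits genes near 1 FPKM most.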
